A study of Mus musculus with 18 samples.

Results

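Tuft cells were examined in the 8 single-cell RNA libraries of the series, which came from 2 sorts of crypt cells of the mouse ileum. A barcode was chosen by 8 tuft cell genes, Dclk1, Rgs13, Avil, Alox5ap, Ltc4s, Trpm5, Sh2d6 and Lrmp. In the Lgr5+ sort it needed at least 1 UMI (unique molecular identifier, 1 counted RNA molecule) of at least 4 of them, and in the lineage-traced sort of at least 3. In all, 1139 of 51470 barcodes within the limits on UMIs, genes and mitochondrial reads met this rule. The Lgr5+ sort held 740 of 25204 and the lineage-traced sort 399 of 26266.

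All mice had a C57Bl6 background, were 60 to 65 days old, carried the Lgr5-GFP-CreERT2 allele and received 1 intraperitoneal injection of tamoxifen at 70 mg/kg, 5 days before collection. WT mice of the Lgr5+ sort had no further allele, and their Setdb1-KO counterparts were Setdb1lox/lox. In the lineage-traced sort both genotypes also carried nTnG, a reporter that turns from red to green fluorescence once Cre has acted, and GFP+ cells were sorted in both experiments. Each genotype had 2 libraries per sort, which the study's methods call biological replicates without tying them to single animals. Cre is driven from Lgr5 here, so GFP in the Lgr5+ sort follows the stem cell promoter, and in the traced sort it also marks the descendants of Lgr5+ cells. The labels call every library stem cells, whereas tuft cells are a differentiated type. The study counts those of the Lgr5+ sort among mature cells without GFP that came along in sorting, so a tuft cell of a Setdb1-KO library there need not be a cell in which Cre had acted.

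Tuft cells are rare chemosensory cells of the gut epithelium. They depend on the transcription factor Pou2f3, read the gut contents through a pathway shared with taste cells (G proteins, a phospholipase, Ca2+ release and the channel Trpm5), and answer parasites and microbial metabolites with the cytokine Il25, leukotrienes, prostaglandins and acetylcholine. Setdb1 is a methyltransferase of histone H3 lysine 9, and the comparison asked how tuft cells of mice with the floxed Setdb1 gene differed from those of WT mice.

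Library totals ran from 50722926 to 81876035 UMIs in the Lgr5+ sort and from 16881518 to 43046925 in the traced sort. The tuft cells had a median of 6051.5 and 4483.5 UMIs in the 2 WT and of 6887 and 3618 in the 2 Setdb1-KO libraries of the Lgr5+ sort, against 1343, 2686, 2663 and 2119 in the traced sort in the same order. Traced WT replicate 2 stood apart: 42.2% of its UMIs lay in droplets with at most 100 UMIs, against 5.54% to 13.0% in the other traced libraries, and it held 19 tuft cells. Pairs of libraries shared 3 to 29 barcodes and at most 1 tuft cell barcode. Simulated doublets marked 2.94% and 12.8% of the WT and 9.73% and 24.9% of the Setdb1-KO tuft cells of the Lgr5+ sort, and 5.06%, 10.5%, 13.7% and 17.2% in the traced sort. Of the other cells they marked 3.84%, 4.68%, 2.02% and 8.63% in the Lgr5+ sort and 6.09%, 2.91%, 3.70% and 7.95% in the traced sort, in the same order. The number marked was set by the number of barcodes of a library. Fewer cells of a subtype and less RNA per cell cannot be told apart in values summed over the tuft cells of a library.

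The 8 rule genes separated the tuft cells more clearly in the Lgr5+ than in the traced sort. Of the Lgr5+ barcodes, 23008 had none of the 8, 1334 had 1, 75 had 2 and 47 had 3, after which the number rose again from 59 with 4 to 261 with all 8. In the traced sort the numbers fell throughout, from 24464 with none through 1229, 174, 107, 102, 81 and 64 to 24 with 7 and 21 with 8. At the limit, Lgr5+ barcodes with 4 rule genes had a median of 23 UMIs of other tuft-enriched genes per 2000 UMIs, and those with 3, just outside, had 13. Traced barcodes had 6 per 1000 UMIs with 3 rule genes and 5 with 2, so the tuft cells nearest the limit there were little richer in tuft RNA than the barcodes just below it. With all 8 rule genes the medians were 83 and 35.

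**Figure D1:**
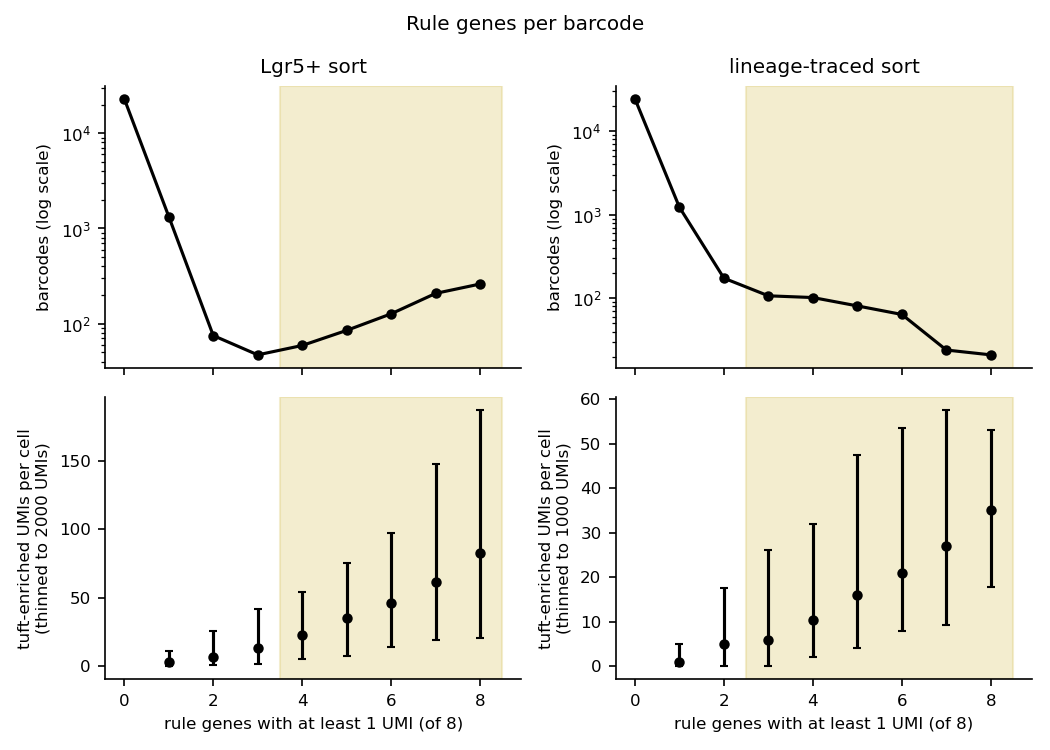
Barcodes (top, log axis) and the median UMIs of other tuft-enriched genes per thinned cell (bottom) against the number of the 8 rule genes with at least 1 UMI, for the Lgr5+ (left) and the lineage-traced sort (right). The Lgr5+ counts dip to 47 at 3 genes and climb to 261 at 8, while the traced counts fall to 21.

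The rule genes cover several arms of tuft cell function, and their levels, which chose the cells, are given as a description in CPM, UMIs of a gene scaled to a common total of all UMIs of the tuft cells of a library. Rgs13, a regulator of G protein signalling, stood at 1407 and 1192 CPM in the WT and 2022 and 1383 CPM in the Setdb1-KO tuft cells of the Lgr5+ sort, and at 0.610 to 1.44 CPM in the other cells. Dclk1, a microtubule-associated kinase and the usual tuft cell marker, stood at 687 and 627 against 746 and 509 CPM. Trpm5, the channel that depolarises the cell, stood at 216 and 186 against 253 and 155 CPM. The highest level of each of these genes was in Setdb1-KO replicate 1, and the lowest level of Dclk1 and Trpm5 was in Setdb1-KO replicate 2. The genotypes thus overlapped for these genes at the CPM given. With the scaling used in the tests, 5 of the 8 rule genes were higher in both Setdb1-KO libraries than in both WT libraries, and 0 were lower. The shares over all tested genes were 18.0% and 17.5%. The rule genes chose the cells, so this count is a description. Traced tuft cells had Dclk1 at 388 and 143 against 428 and 441 CPM, with the low value in the library that stands apart. Rgs13 in the other traced cells was at most 7.41 CPM. Dclk1 lies at chr3:55242364-55539068, Rgs13 at chr1:144138654-144177372 and Trpm5 at chr7:143069153-143094642 (mm10).

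Genes outside the rule gave the same picture of a tuft cell. The summed level of 20 tuft markers that the rule did not use ran from 10242 to 18227 CPM in the tuft cells of the Lgr5+ sort against 959 to 1052 CPM in the other cells, and from 5848 to 9564 against 474 to 884 CPM in the traced sort. Pou2f3, the factor that defines the lineage, stood at 69.2 and 53.2 CPM in WT and 83.5 and 48.9 CPM in Setdb1-KO tuft cells of the Lgr5+ sort, against at most 0.824 CPM in other cells. The transcriptional repressor Gfi1b was at 38.6 to 46.6 CPM and the homeobox factors Hmx2 and Hmx3 at 178 to 249 and 128 to 176 CPM. Traced tuft cells had Pou2f3 at 37.2 and 0 against 33.0 and 28.1 CPM, and Hmx2 at 10.6 and 14.3 against 65.9 and 59.0 CPM. For Hmx2 both traced Setdb1-KO libraries lay above both WT libraries, as for 19.1% of all tested genes, and the difference did not pass the test over all genes. Hmx2 came over the filter on low counts in both Setdb1-KO but not in both WT libraries, so its order gives no support for a difference.

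The taste-type pathway was present from receptor to channel. In the Lgr5+ sort Gng13, a G protein gamma subunit, stood at 336 and 266 against 325 and 308 CPM, and Plcb2, its phospholipase, at 39.5 and 41.7 against 44.1 and 29.8 CPM. Sucnr1, the receptor for succinate, stood at 24.0 and 11.5 against 26.2 and 11.9 CPM, so it differed more between replicates than between genotypes. The sweet and umami receptor subunit Tas1r3 was at 2.39 to 6.26 CPM. The receptor gene Vmn2r26 stood at 3.13 to 10.7 CPM in the Lgr5+ sort and at 37.2 and 14.3 against 5.49 and 29.5 CPM in the traced sort.

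The effector arms were uneven. Alox5, which starts leukotriene synthesis, stood at 117 and 77.2 against 154 and 102 CPM in the Lgr5+ sort, and the prostaglandin D2 synthase Hpgds at 186 and 170 against 185 and 166 CPM, nearly level. Ptgs1 stood at 81.9 and 87.6 against 125 and 63.2 CPM, whereas Ptgs2 had 1.41 CPM in 1 library and none in the others. The cytokine gene Il25 stood at 24.0 and 15.6 against 28.6 and 14.9 CPM, and at 0 and 0 against 11.0 and 1.34 CPM in the traced sort. Traced tuft cells held 70104 to 746005 UMIs per library, so levels this low, and some of those of Vmn2r26 above, rest on few UMIs. Chat, which makes acetylcholine, stood at 21.2 and 12.5 against 27.4 and 8.35 CPM. Of the surface and adaptor genes, the lectin Siglecf stood at 101.6 and 79.3 against 130 and 96.0 CPM. The keratin Krt18 was the most abundant gene of the tuft lists given here, at 5874 and 5193 against 9808 and 5998 CPM. The plot of tuft gene levels per library shows these genes beside the other cells.

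**Figure D2:**
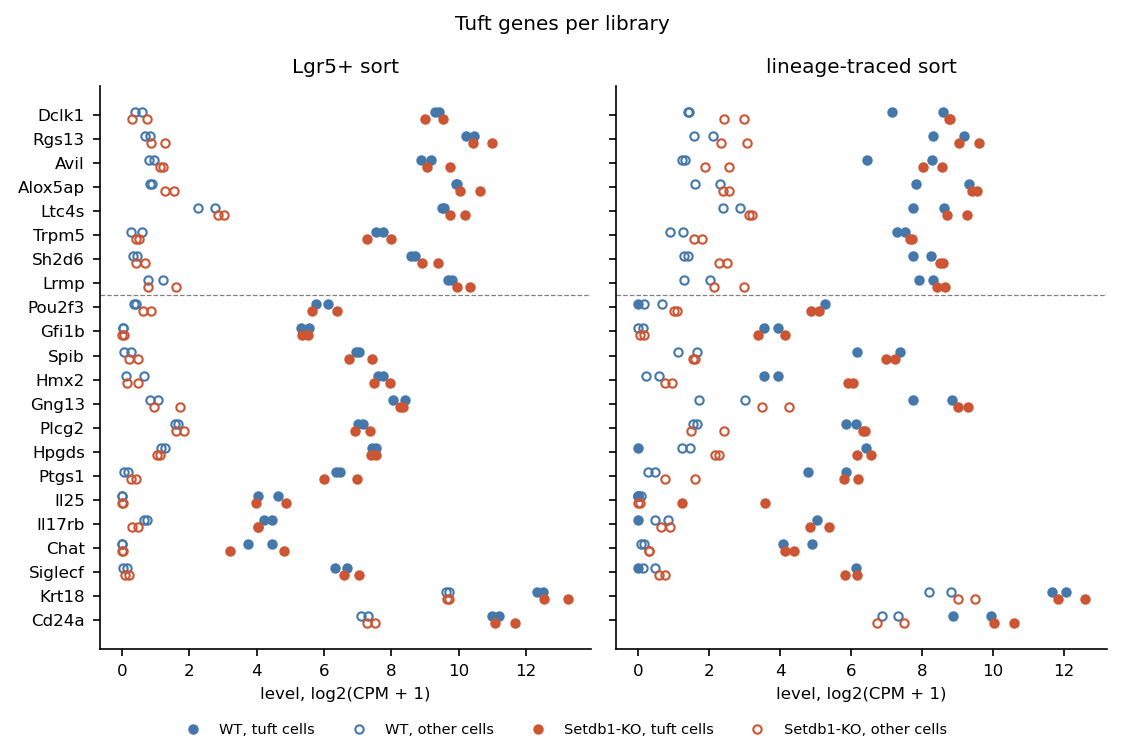
Levels of tuft genes, log2(CPM + 1), per library in tuft cells (filled) and other cells (open) of the Lgr5+ (left) and traced sort (right). Genes above the dashed line belong to the rule. Pou2f3 stands at 48.9 to 83.5 CPM in the Lgr5+ tuft cells and at most 0.824 CPM in the other cells.

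Tuft-enriched genes were those with at least 20 CPM in tuft cells and at least 8 times the level of the other cells, a description with no test. There were 151 in the Lgr5+ sort and 94 in the traced sort, and both lists hold the 8 rule genes, whose place there the choice of cells fixed. Outside the rule, 79 genes were shared, which is 55.2% of the 143 Lgr5+ and 91.9% of the 86 traced genes. Ordered by their ratio to other cells, the leading genes of the Lgr5+ list included, beside 4 rule genes, Pate4, Il25, Dyrk4, Gfi1b, Bmx, Itprid1, Siglecf, Alox5, Basp1 and Pygl. Those of the traced list included, beside 4 rule genes, Gm4952, Vmn2r26, Ahnak2, Gm17660, Chat, Siglecf, Basp1, Alox5, Rgs22 and Cd300lf.

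Pou2f3 belongs to the POU factors, which bind an octamer, so the octamer ATGCAAAT was searched on both strands in the RefSeq promoters (GRCm38.p6, from 250 bases before to 50 after the gene start). It occurred in 8 of the 122 Lgr5+ tuft-enriched genes with a promoter in the table, 6.56%, and in 4 of 77 traced ones, 5.19%, against 532 of all 27025 genes, 1.97%. The 8 were 1810046K07Rik, Hpgds, Kctd12, Ly6g6d, Pfkfb3, Stox2, Trim40 and Zfp428. Below are the promoters of 3 of them whose levels are given in the text, 5′ to 3′ on the gene's strand, with the octamer or its reverse complement in capitals. The window of Hpgds is chr6:65144681-65144980 on the minus strand, that of Kctd12, a potassium channel tetramerisation domain protein, is chr14:102982588-102982887 on the minus strand, and that of 1810046K07Rik, which holds the octamer at 2 places, is chr9:51328869-51329168 on the minus strand.
Hpgds: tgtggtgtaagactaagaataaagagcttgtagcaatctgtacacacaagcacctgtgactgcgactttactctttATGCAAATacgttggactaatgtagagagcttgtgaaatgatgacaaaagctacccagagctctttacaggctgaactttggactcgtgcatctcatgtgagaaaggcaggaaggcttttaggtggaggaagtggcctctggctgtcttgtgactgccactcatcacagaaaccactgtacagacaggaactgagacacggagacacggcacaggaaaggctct
Kctd12: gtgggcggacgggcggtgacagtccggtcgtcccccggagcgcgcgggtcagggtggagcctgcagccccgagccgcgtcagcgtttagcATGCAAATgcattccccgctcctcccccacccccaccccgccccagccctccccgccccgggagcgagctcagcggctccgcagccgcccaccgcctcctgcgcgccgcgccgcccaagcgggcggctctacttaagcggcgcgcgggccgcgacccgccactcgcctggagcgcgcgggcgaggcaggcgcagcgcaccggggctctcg
1810046K07Rik: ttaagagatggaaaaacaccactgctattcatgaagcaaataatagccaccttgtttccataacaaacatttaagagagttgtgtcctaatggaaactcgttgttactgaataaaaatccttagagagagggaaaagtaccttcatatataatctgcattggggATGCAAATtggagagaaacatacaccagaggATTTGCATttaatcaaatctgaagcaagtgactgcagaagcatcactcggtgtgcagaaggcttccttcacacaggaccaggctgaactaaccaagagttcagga
Kctd12 stood at 795 and 620.5 against 718 and 593 CPM in the Lgr5+ tuft cells, and at 292 and 271 against 472 and 357 CPM in the traced ones. A match to the octamer describes the letters and not a bound site.

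The tuft cells varied among themselves. Each Lgr5+ tuft cell was thinned to 2000 UMIs, and the other tuft-enriched genes then gave a median of 58.5 and 48 UMIs per WT and 82 and 51 per Setdb1-KO tuft cell, against 3 in the other cells of each library. Cells with at least 3 UMIs of 10 genes of dividing cells made up 14.6% and 17.8% of the WT and 9.01% and 21.1% of the Setdb1-KO tuft cells, against 39.7% to 48.9% of the other cells. These tuft cells held less tuft RNA, with a median of 37 against 64 tuft-enriched UMIs in WT replicate 1, 21.5 against 54 in WT replicate 2, 30 against 86 in Setdb1-KO replicate 1 and 24 against 65 in Setdb1-KO replicate 2. The same order held for tuft cells with stem gene RNA, at 46 against 73, 26 against 58, 63 against 84 and 30 against 62. In the Lgr5+ tuft cells the dividing cell list stood at 42.2% to 93.9% and the stem list at 67.3% to 100.3% of their near-empty droplet levels, and the part of free RNA in these cells was not tested. Tuft cells with RNA of a list of interferon response and nucleic acid sensing genes had more tuft RNA than the rest of their library, at 79 against 54, 108 against 46.5, 129 against 74 and 110 against 48. This list summed to 2.42 to 3.33 times the level of the other cells in the Lgr5+ and 2.54 to 4.68 times in the traced tuft cells. Choosing cells by genes that are themselves higher in tuft cells favours cells with more tuft RNA, so this order is no separate result. At a fixed number of UMIs, choosing by genes lower in tuft cells can favour cells with less tuft RNA. The orders for dividing and stem genes are therefore no separate results either. The order was mixed for enterocyte genes, at 73 against 56, 46 against 49, 124 against 75.5 and 49 against 53. It was mixed for Paneth genes as well, at 55 against 63, 52 against 24.5, 82 against 76.5 and 53 against 29.5.

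Genes of the neuronal-type tuft-1 and the immune-type tuft-2 subsets were counted in each Lgr5+ tuft cell. At 2000 UMIs per cell, 42.7% and 42.0% of WT and 52.3% and 40.3% of Setdb1-KO tuft cells had at least 1 UMI of both lists. Those with UMIs only of the tuft-1 list made up 26.1% to 29.4%, only of the tuft-2 list 16.2% to 22.3%, and of neither 5.41% to 13.1%. In the traced sort, at 1000 UMIs per cell, 16.7% to 27.3% had both and 26.7% to 42.9% neither. At these depths a cell can lack a UMI of a list by sampling, so the classes are not shown to be tuft-1 and tuft-2 cells. The tuft-1 list summed to 716 to 936 CPM in the Lgr5+ tuft cells, against 85.3 to 98.0 CPM in the other cells and 82.1 to 93.5 CPM in the near-empty droplets.

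RNA of other cell types was also counted in the tuft cells, which bears on the comparisons that follow. T cell genes summed to at most 13.6 CPM in the Lgr5+ tuft cells and had 0 UMIs in the traced ones. Paneth cell genes summed to 2382 to 5807 CPM in the Lgr5+ tuft cells, against 8944 to 33595 CPM in the other cells and 40613 to 78838 CPM in the near-empty droplets. In the traced tuft cells they summed to 109465 and 185910 CPM in WT and 41420 and 26529 CPM in Setdb1-KO, against 341752 and 352210, and 150802 and 154436 CPM in the near-empty droplets. Goblet cell genes stood at 3367 to 12093 CPM in the Lgr5+ and 11097 to 16737 CPM in the traced tuft cells. Genes of B or plasma cells reached 17.9 CPM and those of mast cells or basophils 59.3 CPM in the Lgr5+ tuft cells.

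Setdb1, at chr3:95323525-95357202 (mm10), was low in every library. The Lgr5+ tuft cells held 11 and 21 UMIs of it in WT and 4 and 9 in Setdb1-KO, which is 15.5 and 21.9 against 4.77 and 5.37 CPM. The Setdb1-KO libraries were both below the WT ones, as for 17.5% of all tested genes. The log2 fold change of -1.83 (SE 0.47) missed the threshold over all genes (edgeR quasi-likelihood test, adjusted p = 0.38). Setdb1 came over the filter on low counts in both WT but not in both Setdb1-KO libraries, so its order gives no support for a difference. The other cells of the sort stood at 11.2 and 9.65 against 5.28 and 6.24 CPM (edgeR, adjusted p = 0.046). The traced tuft cells held 2 and 0 UMIs in WT and 0 and 6 in Setdb1-KO, too few to compare. The other traced cells held 115 and 34 UMIs in WT and 94 and 204 in Setdb1-KO, which is 6.12 and 4.30 against 10.7 and 7.85 CPM, so both libraries labelled Setdb1-KO lay above both WT libraries, the opposite of the order in the Lgr5+ sort. Counting at the 3′ end does not read a deleted exon, so neither order checks the deletion. The study describes a PCR check of the deleted exon in sorted GFP+ cells of the genotypes of both sorts, which was not analysed here. GFP UMIs numbered 0 to 2 per library in the tuft cells.

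The share of tuft cells was higher in the Setdb1-KO libraries of both sorts, within what 2 libraries per genotype can show. In the Lgr5+ sort tuft cells made up 2.14% (95% exact interval 1.75 to 2.59) and 2.80% (2.41 to 3.25) of the WT and 3.91% (3.23 to 4.68) and 3.09% (2.78 to 3.43) of the Setdb1-KO barcodes. In the traced sort the shares were 1.04% and 0.514% in WT and 1.07% and 2.45% in Setdb1-KO. The genotypes did not overlap in either sort, although the 1.04% and 1.07% of the traced sort lay within counting error of each other, with means of 2.47% ± 0.469 against 3.50% ± 0.580 (SD, n = 2 each) in the Lgr5+ sort, 1.42 times, and 0.778% ± 0.373 against 1.76% ± 0.971 in the traced sort, 2.26 times. The exact two-sided permutation test gave p = 0.33 in each, the smallest that 2 against 2 libraries allow. The difference of 1.03 percentage points in the Lgr5+ sort was 0.619 without Setdb1-KO replicate 1, and the 0.981 of the traced sort was 0.294 without Setdb1-KO replicate 2 and 1.67 without Setdb1-KO replicate 1. At 1 depth per cell the shares were 1.59% and 2.04% against 3.45% and 2.28% in the Lgr5+ sort, and 0.541% and 0.188% against 0.865% and 1.60% in the traced sort. Without the barcodes marked as doublets the genotypes overlapped in both sorts, at 2.37% against 3.08% and 0.763% against 1.58% (exact permutation p = 0.67 in each). The intervals cover counting error only, and shares in sorted cells also depend on the gate.

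**Figure D3:**
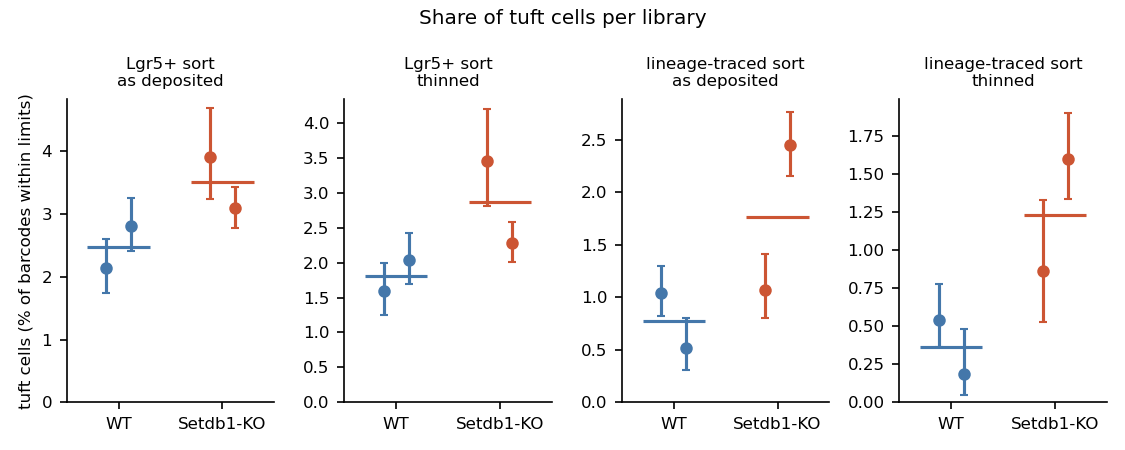
Tuft cells as a percentage of barcodes within the limits, 1 point per library with a 95% exact binomial interval, for both sorts, as counted and with cells thinned to 1 depth. As counted, the Setdb1-KO libraries stand at 3.09% and 3.91% above the WT libraries in the Lgr5+ sort, and at 1.07% and 2.45% in the traced sort, where the lower one is close to the 1.04% of a WT library.

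Cell-to-cell variability, a theme of the study, was measured as the median coefficient of variation (SD over mean) across genes between thinned tuft cells. In the Lgr5+ sort it was 1.60 and 1.64 in WT and 1.60 and 1.63 in Setdb1-KO, over 1412 genes, close to the 1.53 to 1.56 that counting noise alone gives. In the traced sort it was 1.64 and 1.60 against 1.61 and 1.56, over 579 genes. The genotypes overlapped in both sorts (exact permutation p = 0.67). At the lower thinning depth they did not, with means of 1.67 against 1.62 in the Lgr5+ and 1.63 against 1.48 in the traced sort, lower in Setdb1-KO (exact permutation p = 0.33). The values that counting noise alone gives were also lower in Setdb1-KO on average, at 1.58 and 1.57 against 1.53 and 1.57 in the Lgr5+ and 1.48 and 1.45 against 1.40 and 1.37 in the traced sort.

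Between the genotypes, 15 genes changed in the Lgr5+ tuft cells: 9 rose and 6 fell in Setdb1-KO. No tuft cell gene of the lists was among them. Genes of enteroendocrine cells (Chgb, Chga, Tac1, Reg4), Paneth cell defensins (Defa21, Defa22), Adh1, Bglap3 and Gm42031 were higher, and the antimicrobial lectins Reg3b and Reg3g, the MHC class II gene H2-Ab1, Adh6a, Ceacam10 and Lamtor3 were lower. They were 0.212% of 7059 genes tested, 0.127% higher and 0.0850% lower (edgeR quasi-likelihood test on UMIs summed per library, Benjamini-Hochberg adjusted p under 0.05). Bglap3, Gm42031, Reg4, Chga and Tac1 came over the filter on low counts in both Setdb1-KO but not in both WT libraries. Adh6a and Ceacam10 came over it in WT alone. The 9 and 6 therefore give no balance of directions. All 15 differed in the same direction in the other cells and in the near-empty droplets of these libraries, 10 of them past the threshold in the other cells, and 11 had their higher level outside the tuft cells. The calls of Bglap3, Gm42031, Chgb, Chga, Defa22 and Reg3b held without each library in turn. With 1 more rule gene per cell, 7 genes were called, all 7 higher and none of the 6 lower ones. The count was 102 without the barcodes marked as doublets, 80 without Setdb1-KO replicate 1 and 206 without Setdb1-KO replicate 2.

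Adh1, an alcohol dehydrogenase that also oxidises retinol, was the tuft-enriched gene among them. It stood at 539 and 574 CPM in the WT and 1619 and 1035 CPM in the Setdb1-KO tuft cells, with no overlap, and was found in 83.1% to 87.3% of WT and 93.2% to 97.3% of Setdb1-KO tuft cells. The log2 fold change was 1.27 (SE 0.21, edgeR adjusted p = 0.047). The other cells held 39.7 and 41.5 against 74.1 and 63.1 CPM, a log2 fold change of 0.76 that also passed (edgeR adjusted p = 0.015), and the difference between tuft and other cells did not (0.50, SE 0.17, edgeR adjusted p = 0.70). The call of Adh1 in tuft cells was lost without WT replicate 1, without WT replicate 2, and with 1 more rule gene or a mitochondrial limit of 10%. Adh1 in the traced tuft cells stood at 335 and 171 against 450.3 and 307 CPM, overlapping between genotypes.

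Adh1 (chr3:138260991-138290698, mm10) was 1 of 5 changed genes on chromosome 3, which also carries Setdb1. Bglap3 (chr3:88368616-88372743), Reg4 (chr3:98222156-98236748), Lamtor3 (chr3:137918506-137928900) and Adh6a (chr3:138313286-138331134) were the others, at 2.90 to 43.0 Mb from Setdb1. Chromosome 3 held 351 of the genes tested, 4.97%. Bglap3, an osteocalcin-related gene, had no UMI in the WT tuft cells and 83.5 and 77.6 CPM in the Setdb1-KO ones, at least 44.8-fold higher with 3 counts over the group as the floor. In Setdb1-KO replicate 1, 68 of its 70 UMIs lay in 1 cell, and in replicate 2 its 130 UMIs lay in 25 cells. Lamtor3, a subunit of the Ragulator complex on lysosomes, stood at 70.6 and 57.4 against 25.1 and 13.1 CPM (log2 fold change -1.81, SE 0.29, edgeR adjusted p = 0.043). Adh6a stood at 43.8 and 65.7 against 9.54 and 2.39 CPM (-3.45, SE 0.47, adjusted p = 0.013); reads of it and Adh1, which have related sequences, could be split by the counting.

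Chgb, Chga, Tac1 and Reg4 rose, with most of their UMIs in a few cells. Chgb, a granin of secretory granules, stood at 11.3 and 30.2 CPM in WT and 336 and 458 CPM in Setdb1-KO tuft cells (log2 fold change 4.21, SE 0.34, edgeR adjusted p = 2.8e-04). Of its 282 UMIs in Setdb1-KO replicate 1, 240 lay in 1 cell, and of the 768 in replicate 2, 684 lay in 3 cells. Chga, its sister granin, stood at 21.2 and 10.4 against 165 and 104 CPM (3.13, SE 0.32, adjusted p = 0.0021), and the tachykinin precursor Tac1 at 1.41 and 4.17 against 51.3 and 34.0 CPM (3.75, SE 0.49, adjusted p = 0.011). Reg4, a lectin of enteroendocrine and other secretory cells, stood at 7.06 and 13.6 against 279 and 81.1 CPM (4.00, SE 0.61, adjusted p = 0.028). With the highest cell of each library left out, Chga stood at 4.27 and 8.39 against 7.23 and 49.2 CPM and overlapped between genotypes, and it was the 1 gene of the 15 that did. In Setdb1-KO replicate 1, 132 of its 138 UMIs lay in that cell. Chgb then stood at 8.57 and 9.44 against 50.6 and 278.6 CPM, Tac1 at 0 and 1.05 against 16.9 and 16.2 CPM and Reg4 at 2.87 and 5.25 against 9.64 and 41.3 CPM. Of the 12 enteroendocrine genes fixed as a list, 7 were tested and Chgb, Chga and Tac1 passed. Chga, Tac1 and Gip came over the filter on low counts in both Setdb1-KO but not in both WT libraries, and Cck in WT alone, so the tested genes give no balance of directions. Cck had 13 and 29 UMIs in WT and 8 and 56 in Setdb1-KO, and Gcg, which was not tested within tuft cells, had 1 and 271 against 5 and 11. The list summed to 236 and 553 CPM in WT and 921 and 1263 CPM in Setdb1-KO tuft cells, and to 1015 and 1443 against 4676 and 2048 CPM in the other cells. Single cells weigh on the tuft cell sums: 266 Gcg UMIs of WT replicate 2 and 450 of the 483 Gip UMIs of Setdb1-KO replicate 2 lay in 1 cell each. The part of doublets and of free RNA in these values was not tested beyond leaving out the marked barcodes, after which Chgb kept a log2 fold change of 4.00.

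**Figure D4:**
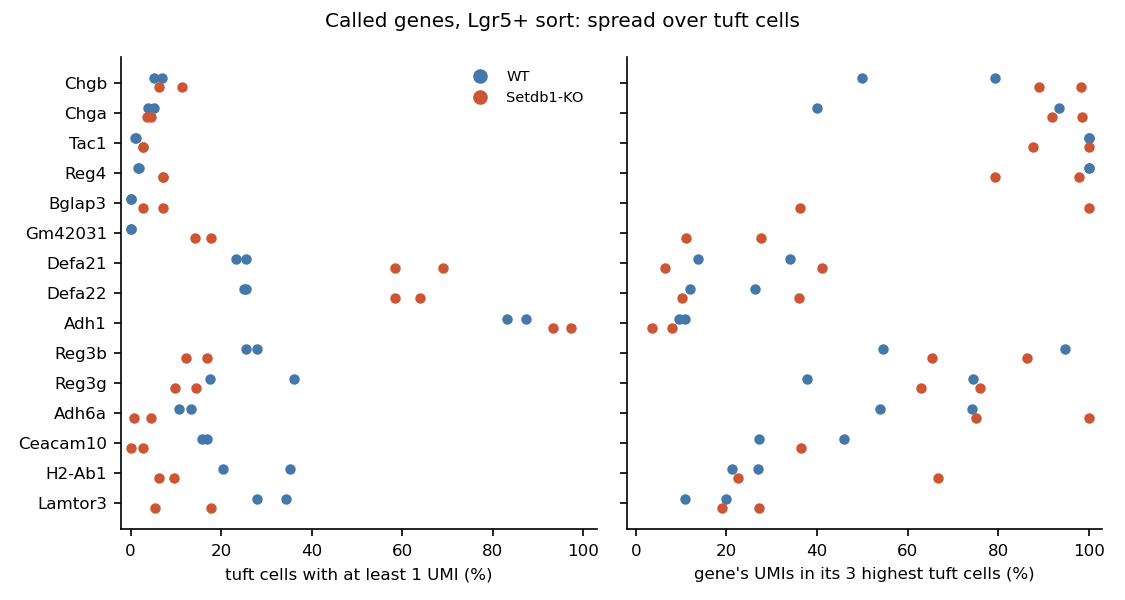
Changed genes of the Lgr5+ sort by the percentage of tuft cells with at least 1 UMI (left) and the percentage of the gene's UMIs in its 3 highest tuft cells (right), 1 point per library. Adh1 lies in 83.1% to 97.3% of tuft cells, while 98.2% and 89.1% of the Chgb UMIs of the Setdb1-KO libraries lie in 3 cells.

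The defensins were far more abundant in the near-empty droplets than in tuft cells. Defa21 stood at 62.1 and 53.2 CPM in WT and 203 and 283 CPM in Setdb1-KO tuft cells (log2 fold change 2.13, SE 0.23, edgeR adjusted p = 0.0024), and at 1215 and 951 against 5449 and 4510 CPM in the near-empty droplets. Defa22 stood at 53.6 and 52.1 against 196 and 231 CPM (2.05, SE 0.20, adjusted p = 0.0013). Their near-identical sequences make the split between defensin genes uncertain. Gm42031, a predicted gene, had no UMI in WT and 34.6 and 37.6 CPM in Setdb1-KO tuft cells, at least 20.1-fold higher, and 29 and 63 UMIs spread over 20 and 50 cells.

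Reg3b, Reg3g, Ceacam10 and H2-Ab1 fell. Reg3b stood at 1368 and 1071 CPM in WT and 217 and 199 CPM in Setdb1-KO tuft cells (log2 fold change -2.52, SE 0.18, edgeR adjusted p = 2.4e-04). Reg3g stood at 615 and 689 against 59.6 and 165 CPM (-2.44, SE 0.35, adjusted p = 0.020). The genotypes did not overlap for either gene. Much of the RNA lay in a few cells: of the Reg3b UMIs, 822 of 969 in WT replicate 1 and 104 of 182 in Setdb1-KO replicate 1 lay in 1 cell, and of the Reg3g UMIs 262 of 436 in WT replicate 1. With the highest cell of each library left out, a step chosen after the values were seen, Reg3b stood at 212 and 852 against 94.7 and 116 CPM and Reg3g at 251 and 604 against 34.0 and 114 CPM. Ceacam10, a cell adhesion molecule, stood at 52.2 and 84.5 against 0 and 6.56 CPM (-3.95, SE 0.54, adjusted p = 0.013). Leaving out 1 library gave -8.88 to -3.33 for Ceacam10, so its size is uncertain.

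H2-Ab1, the beta chain of an MHC class II molecule, stood at 127 and 77.2 CPM in WT and 14.3 and 29.2 CPM in Setdb1-KO tuft cells (log2 fold change -2.05, SE 0.33, edgeR adjusted p = 0.039). Of the 7 MHC class II genes, 6 were tested, and 1 passed. For 4 of the 6 only the WT libraries both came over the filter on low counts. The filter thus favoured genes lower in Setdb1-KO, and the 6 give no balance of directions. Cd74, the invariant chain, stood at 957 and 640.3 against 77.5 and 230.3 CPM (adjusted p = 0.055). The list summed to 1437 and 926 against 112 and 350.2 CPM in tuft cells and to 2470 and 1579 against 315 and 712 CPM in the other cells, so tuft cells held less of it than the other cells in each library. It was at 68.6% to 95.1% of its level in the near-empty droplets, and the part of free RNA was not tested. Tuft cells with at least 3 UMIs of this list at 2000 UMIs made up 25.0% and 18.5% of WT and 0 of 111, which allows a share of up to 2.70%, and 6.39% of Setdb1-KO tuft cells. The limit is on cells with that many UMIs and covers counting error only, and does not bound cells that express these genes. WT cells with this RNA had less tuft RNA, at 23 against 70 and 22 against 53 tuft-enriched UMIs. As for the dividing and stem genes, this order is no separate result. For the traced tuft cells 3 of these genes were tested and none passed.

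No gene of the tuft lists passed the threshold within tuft cells. Of 99 distinct genes in the tuft lists, 82 were tested in the Lgr5+ and 56 in the traced sort, and a gene that missed the threshold is not thereby shown to be unchanged. Medians of the tested genes in the Lgr5+ sort were 0.08 for 11 transcription factors, 0.07 for 13 taste-type signalling genes, 0.11 for 9 eicosanoid genes, 0.14 for 8 cytokine and receptor genes, 0.25 for 2 acetylcholine genes, 0.24 for 16 microvilli and cytoskeleton genes, 0.27 for 15 surface and adaptor genes, 0.09 for 7 tuft-1 genes, 0.18 for 10 tuft-2 genes and 0.13 for the 20 independent markers, beside -0.00 over all tested genes. The transcription factor Nfatc1 came over the filter on low counts in both Setdb1-KO but not in both WT libraries. Ccl9 of the cytokine and Chat of the acetylcholine genes came over it in WT alone. The medians of the lists with these genes therefore give no balance of directions. Of the 143 tuft-enriched genes outside the rule, 41 (28.7%) were higher in both Setdb1-KO libraries than in both WT libraries, against 18.0% of all tested genes, and 16 (11.2%) were lower, against 17.5%. Of the 143, 3 (Hotairm1, Igfbpl1 and Gm20621) came over the filter on low counts in both Setdb1-KO but not in both WT libraries, and none in WT alone. Their median was 0.11, and Adh1 was the 1 gene that passed the test. Over all 151, Setdb1-KO replicate 1 held the highest level of 105, WT replicate 1 of 40, WT replicate 2 of 5 and Setdb1-KO replicate 2 of 1. This is the order of their median UMIs per tuft cell in the Lgr5+ sort, and it was not in the traced sort.

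Lists of other programs passed no gene in the Lgr5+ tuft cells except those named. Medians were -0.53 for 10 stem genes, with 9 negative, -0.08 for 10 dividing cell genes, 0.49 for 7 enterocyte genes, -0.18 for 7 goblet genes and 0.27 for 9 Paneth genes with Defa22 called. The interferon and nucleic acid sensing list had a median of -0.03 over 11 genes, the necroptosis and death receptor list -0.03 over 6 and the H3K9 methylation machinery -0.17 over 9. Of these lists only the stem and goblet genes all came over the filter on low counts in both genotypes. The others had members over it in 1 genotype alone, such as Mki67, Mptx2 and Setdb1 in WT and Apoa1 and Fadd in Setdb1-KO. Their medians therefore give no balance of directions. No T cell gene and only 1 gene each of the B or plasma cell and mast cell or basophil lists reached the level for testing.

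In 14 genes the genotype difference of the Lgr5+ tuft cells differed from that of the other cells, 7 in each direction, 0.108% of 13019 tested (edgeR, interaction of cell class and genotype). The other cells pool all remaining cell types, and the part of a changed cell mix was not tested. Rac2, a small GTPase of blood cells and of tuft-2 cells, was the 1 tuft-list gene among the 14. It stood at 186 and 120 CPM in WT and 369 and 168 CPM in Setdb1-KO tuft cells and at 1.09 and 0.716 against 0.674 and 0.168 CPM in the other cells. Its change in tuft cells exceeded that in other cells by 2.09 on the log2 scale (SE 0.33, edgeR adjusted p = 3.4e-04), while the difference within tuft cells, 0.82, overlapped between the genotypes (edgeR adjusted p = 0.75). Pnpla6, a phospholipase, stood at 36.7 and 29.2 against 87.1 and 74.6 CPM in tuft cells and 4.98 and 4.49 against 4.31 and 4.01 CPM in the others (1.52, SE 0.30, adjusted p = 0.013). The tuft-enriched 1810046K07Rik, whose promoter is printed above, stood at 174 and 92.8 against 132 and 119 CPM in tuft cells and 0.610 and 0.987 against 2.40 and 1.95 CPM in the others (-1.40, SE 0.31, adjusted p = 0.042). Leaving out 1 library gave -2.23 to -0.610 for this difference. For both Rac2 and 1810046K07Rik the difference came with levels of a few CPM or less in the other cells. Chgb, Chga, Tac1, Reg4 and Mptx1 exceeded, and Reg3b, Reg3g, Fos, Slc7a9, Gm26917 and Gcg lay below, the change of the other cells. Gcg rested on 1 cell of WT replicate 2 with 266 of 271 UMIs, and its difference turned from -4.67 to 1.52 without that library. DESeq2 called 4 genes in this comparison, and without Setdb1-KO replicate 2 edgeR called 184.

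**Figure D5:**
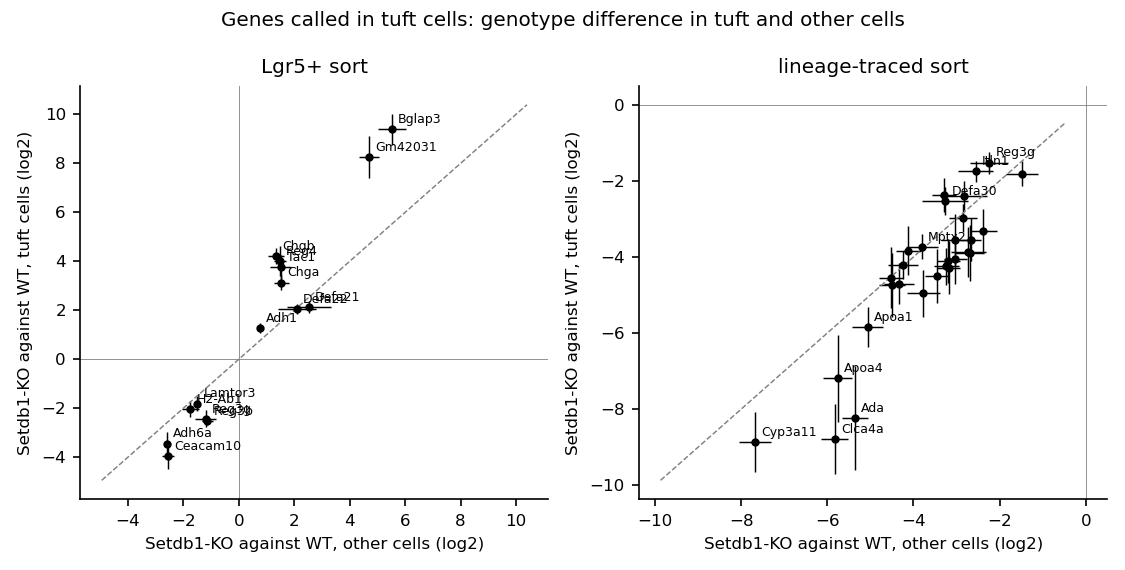
Log2 fold change of Setdb1-KO against WT in tuft cells (vertical) against that in other cells (horizontal) for the 15 genes changed in the Lgr5+ (left) and the 29 changed in the traced tuft cells (right). All 15 and all 29 lie on the same side of 0 on both axes.

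In the traced tuft cells 29 genes changed and all 29 fell in Setdb1-KO, 1.43% of 2027 tested. They included 6 genes of the enterocyte and 4 of the Paneth list. Only Mptx2, Defa30, Itln1, Defa24, Rbp2, Prap1, Gstm3 and Reg3g came over the filter on low counts in both genotypes. The others came over it in both WT but not in both Setdb1-KO libraries. The shared direction of the 29 therefore gives no balance of directions. The count ran from 37 to 68 when 1 library was left out (59 without WT replicate 1, 68 without Setdb1-KO replicate 1). All 29 also fell past the threshold in the other cells and were lower in the near-empty droplets. Apoa1, an apolipoprotein of absorptive cells, stood at 564 and 1013 CPM in WT and 22.0 and 13.4 CPM in Setdb1-KO tuft cells (log2 fold change -5.84, SE 0.52, edgeR adjusted p = 8.0e-04), and at 628 and 716 against 29.8 and 28.3 CPM in the other cells. Mptx2, a Paneth cell pentraxin, stood at 755 and 799 against 76.9 and 63.0 CPM (-3.73, SE 0.32, adjusted p = 8.0e-04). S100g, a calcium-binding protein of enterocytes, stood at 351 and 314 against 22.0 and 20.1 CPM (-4.21, SE 0.37, adjusted p = 8.0e-04).

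Cyp3a11, a drug-metabolising cytochrome, was at 202 and 128 CPM in WT and had no UMI in Setdb1-KO tuft cells, at least 51.1-fold lower, and the chloride channel regulator Clca4a, at 138 and 214 CPM, was at least 54.5-fold lower. These values rested on few cells: 18 of the 26 and 14 of the 15 Clca4a UMIs of the WT libraries lay in 1 cell each, and 16 of 38 and 6 of 9 Cyp3a11 UMIs. In WT replicate 2, 58 of the 71 Apoa1 UMIs lay in 3 cells. With the highest cell of each library left out, 27 of the 29 still did not overlap between genotypes, and Krt20 and Alpi did. Of the 12 enterocyte genes 9 were tested and 6 passed, but 5 of the 9 came over the filter on low counts in both WT but not in both Setdb1-KO libraries. The filter thus favoured genes lower in Setdb1-KO, and the tested enterocyte genes give no balance of directions. The 9 Paneth genes all came over it in both genotypes, and all 9 were lower, 4 past the threshold (median -2.08, beside 0.00 over all tested genes). Of all 2027 tested genes, 1008 were lower and 29 passed. In the traced tuft cells the Paneth list summed to 17.2% to 52.8% of its near-empty droplet level. That was 0.336 to 0.627 times the level of the other cells. The enterocyte list summed to 5865 and 14179 CPM in WT and 1840 and 3177 CPM in Setdb1-KO tuft cells, and to 5903 and 7131 against 1744 and 2502 CPM in the other cells. Tuft cells thus held 0.994 to 1.99 times the level of the other cells, with the highest ratio in WT replicate 2, the library that stands apart. The Paneth defensin Defa24 alone made up 60701 and 108168 CPM of the WT tuft cells and 23143 and 15525 CPM of the Setdb1-KO ones (-2.39, SE 0.38, edgeR adjusted p = 0.017), against 190635 and 198983 versus 88901.5 and 94257 CPM in the near-empty droplets. Its 3 highest cells held 55.4% and 69.4% of its UMIs in WT and 56.7% and 35.7% in Setdb1-KO. The part of free RNA in these changes was not tested.

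No tuft-list gene passed the test in the traced sort. The median was 0.14 for 7 taste-type signalling genes, beside 0.00 over all tested genes, and all 7 came over the filter on low counts in both genotypes. The other tuft lists outside the rule with tested genes had members that came over it in 1 genotype alone. Of 86 tuft-enriched genes outside the rule 55 were tested, and 23 of the 55 came over the filter in both Setdb1-KO but not in both WT libraries. The 21 that were higher in both Setdb1-KO than in both WT libraries (19.1% of all tested genes) and the 2 that were lower (16.4%) therefore give no balance of directions. Setdb1-KO replicate 1 held the highest level of 39 of all 94 tuft-enriched genes, Setdb1-KO replicate 2 of 34, WT replicate 1 of 13 and WT replicate 2, which had the highest median of UMIs per tuft cell, of 8. No stem, dividing cell, goblet, interferon or H3K9 gene passed the threshold.

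In 25 genes, 0.226% of 11047 tested, the genotype difference of the traced tuft cells lay above that of the other cells, and in none below. The other cells pool all remaining cell types, and their sum of enterocyte genes was lower in Setdb1-KO, as given above. The part of a changed cell mix in these differences was not tested. The 25 included 3 brush border genes, but also 4 Paneth cell defensins (Defa3, Defa5, Defa29 and Defa30), the lectins Itln1 and Reg3b and the goblet cell gene Tff3, which are markers of other cell types. Defa29 stood at 3488 and 5064 against 2037 and 664 CPM in tuft cells and at 8835 and 6968 against 2005 and 1193 CPM in the others, and the part of free RNA in these differences was not tested. Espn, an actin bundler of microvilli, stood at 149 and 85.6 CPM in WT and 269 and 247 CPM in Setdb1-KO tuft cells, but at 23.6 and 24.9 against 7.87 and 5.47 CPM in the other cells. The differences parted by 3.47 on the log2 scale (SE 0.33, edgeR adjusted p = 6.6e-22). Cdhr2, a protocadherin that links microvilli, stood at 170 and 143 against 121 and 125 CPM in tuft cells and 71.8 and 63.5 against 18.6 and 14.6 CPM in the others (2.30, SE 0.33, adjusted p = 1.5e-08). Its partner Cdhr5 stood at 393.5 and 328 against 335 and 369 CPM in tuft cells and at 126 and 131 against 59.4 and 48.4 CPM in the others (1.79, SE 0.27, adjusted p = 6.5e-08).

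Cd24a, a surface sialoglycoprotein, stood at 978 and 471 against 1532 and 1051 CPM in tuft cells and at 160 and 115 against 180 and 105 CPM in the others (1.36, SE 0.24, edgeR adjusted p = 4.2e-05). Espn, Cdhr2, Cdhr5 and Cd24a were the 4 tuft-list genes among the 25, and none of them passed the test within tuft cells. Spink1, Prr15, Fcgbp, Fabp6, Cdkn1a and Plac8 also parted, by 2.52, 2.59, 1.75, 1.45, 2.50 and 1.23. The median gene shifted by 0.28 in this comparison, so that these differences are to be read against it. DESeq2 called 6 genes here, and edgeR called 4 without Setdb1-KO replicate 2.

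Between the sorts, the genotype difference of tuft cells differed in 44 genes, 0.602% of 7310 tested (edgeR, interaction of genotype and sort). It was lower in the traced sort in 43, and Lamtor3 was the 1 gene in which it was higher. None of the 44 was a tuft-list gene. They held 23 of the 29 genes changed in the traced and 5 of the 15 changed in the Lgr5+ tuft cells. Reg3g was the 1 gene called in both sorts, at 1244 and 1569 against 472 and 669 CPM in the traced tuft cells (log2 fold change -1.52, SE 0.29, edgeR adjusted p = 0.037). Sort, depth, the limits on barcodes and the reporter allele cannot be told apart in this comparison. Every gene called within a sort also differed in the same direction in the near-empty droplets of that sort. There Defa22 stood at 1142 and 859 in WT against 4895 and 4097 CPM in Setdb1-KO of the Lgr5+ sort. Apoa1 stood at 594 and 620 against 127 and 80.1 CPM in the traced sort. The part of free RNA in the differences between the sorts was not tested.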

How the data were processed

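Single-cell RNA was measured in 8 libraries, 2 per genotype and sort. The authors deposited unfiltered UMI counts per gene and barcode of each library, made with Cell Ranger 6.1.1 on build mm10 per the processing notes, without normalization and with no cell removed. Every value was checked to be whole. The scaling below was done here.

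Barcodes were kept with 1000 (Lgr5+) or 500 (lineage-traced) to 18000 UMIs, 200 to 4000 genes and under 5% mitochondrial UMIs. Tuft cells needed 4 (Lgr5+) or 3 (traced) of the 8 rule genes. Members, lists and tests were chosen with earlier results of these data known. Groups were taken from the sample titles. UMIs were summed per library over the tuft cells and, apart, over all other kept barcodes, and tested with the edgeR 4.0.16 quasi-likelihood test in R 4.3.3 (filterByExpr, TMM scaling, Benjamini-Hochberg over all genes tested, threshold 0.05), with genotype alone. Interactions with sort, and with cell class with the library as a block, used the same test. Printed levels are plain CPM of summed UMIs, and log2 fold changes are TMM-scaled Setdb1-KO against WT, with SE. Near-empty droplets are barcodes with at most 100 UMIs. Shares and the coefficient of variation were compared by exact permutation over libraries. The latter used genes with a mean of at least 0.2 UMIs per cell, thinned to 2000 (Lgr5+) or 1000 (traced) UMIs. Doublets were simulated at 0.8% per 1000 barcodes and left in unless stated. Scripts ran in Python 3.11.15 with scipy 1.17.1. Positions are from GENCODE M21.

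Named were the rule genes and Setdb1, the called or up to 8 most abundant genes of each tuft list (of which those with a described role are given), called genes of other lists, up to 10 genes per direction with the smallest adjusted p under 0.05, an absolute log2 fold change of at least 1 and no overlap, and the 15 leading tuft-enriched genes, of which 1 is not reported here. Other genes were named after their values were seen.

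The fits were tested on simulated data. The replicate numbers come from the titles, and the deviations of same-numbered libraries correlated at 0.103 (Lgr5+) and 0.138 (traced), with 2 pairs each, so that the numbers are not shown to pair the libraries. Alternatives were DESeq2 1.42.0, RLE scaling, no filter on low counts, a replicate block, other limits, no doublets and leaving out each library. The bulk RNA, chromatin and ATAC samples of the study were not analysed here.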

Additional observations from a re-analysis of the deposited data

Results flagged for a closer look

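Of the 44 genes whose genotype difference differed between the sorts, 11 are given here, the 10 with the smallest unadjusted p and Lamtor3. Their genotype difference differed between the traced and the Lgr5+ tuft cells by the interaction test (edgeR quasi-likelihood, adjusted p under 0.05). Given as the traced minus the Lgr5+ log2 fold change, it was -6.17 for Apoa1, -4.56 for Rbp2, -4.68 for Gstm3 and -4.01 for Gsta1, genes of absorptive cells. It was -4.24 for Defa21, -4.03 for Defa22, -3.39 for Defa30 and -3.15 for Gm14851, all Paneth cell defensins or of that family, and -4.06 for Reg1. Defa21 and Defa22 rose in the Lgr5+ tuft cells and in the near-empty droplets of that sort, and the part of free RNA was not tested.

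For Bglap3 the value was -13.90, which rests on libraries without a UMI and is no measure of size: the traced tuft cells held 0 and 271 CPM in WT and 0 and 2.68 CPM in Setdb1-KO. Lamtor3 was the gene with a positive value, 3.40, with 16.0 and 0 CPM in WT and 38.4 and 36.2 CPM in Setdb1-KO traced tuft cells.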

How the results depend on the processing

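Of 73 alternative values for the 9 counts, shares and variability measures, 51 were counted as kept, 20 moved and 2 reversed. Gene counts were judged by their size. Share and variability differences were judged by their direction alone, so those counted as kept can differ in size. Of 815 for 89 gene differences, 682 kept their side of the threshold, 127 lost the call, 5 gained it and 1 reversed. The cause was not tested. For the 15 changed genes of the Lgr5+ tuft cells, the count was 82 with no filter on low counts, 102 without doublets and 7 with 1 more rule gene. Leaving out 1 library gave 10 to 206 (80 without Setdb1-KO replicate 1, 206 without replicate 2). The 29 of the traced sort became 63 with no filter and 37 to 68 without 1 library (59 without WT replicate 1, 68 without Setdb1-KO replicate 1, 56 without replicate 2). DESeq2 called 12 and 40. With the replicate block the counts were 54 and 49; every one of the 15 Lgr5+ calls remained among the 54, and the numbers are not shown to pair the libraries.

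The count of genes differing between the sorts was 28 by DESeq2 and, in leaving out 1 library, which was chosen after seeing the data, 29 (without traced WT replicate 2) to 61. Differences between tuft and other cells numbered 4 by DESeq2 and 3 to 184 without 1 library in the Lgr5+ sort (3 without WT replicate 1, 46 and 184 without Setdb1-KO replicates 1 and 2), and 6 and 4 to 36 in the traced sort (8 and 4 without Setdb1-KO replicates 1 and 2). The Gcg difference of -4.67 ran from -5.89 to 1.52, the latter without WT replicate 2. The variability difference of the Lgr5+ sort, Setdb1-KO minus WT, ran from -0.0223 to 0.0158, turning positive without WT replicate 2 (0.0151) and without Setdb1-KO replicate 1 (0.0158). The share differences stayed positive, at 0.619 to 1.44 and 0.294 to 1.67 percentage points. With 2 libraries per genotype no permutation test could pass the threshold, and the 19 tuft cells of traced WT replicate 2 limit what the traced sort can show.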
